A study of Homo sapiens with 16 samples.

Results

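The genes described here encode the nuclear-encoded subunits of the mitochondrial respiratory chain (complexes I to IV) and of the ATP synthase (complex V), together with their tissue-specific isoforms. They were taken by symbol alone: NDUFA, NDUFB, NDUFC, NDUFS and NDUFV (complex I), SDHA to SDHD (complex II), UQCR (complex III), COX4I, COX5, COX6, COX7 and COX8 (complex IV) and ATP5 (complex V), without the NDUFAF assembly factors and without symbols that end as pseudogenes do. This gave 96 of the 26364 symbols in the count tables, with 43 genes under complex I, 8 under complex II, 9 under complex III, 17 under complex IV and 19 under complex V. Of these, 75 are core or accessory subunits and 8 are isoforms. The prefixes also brought in 6 assembly or associated factors (the 4 SDHAF genes, ATP5S and ATP5SL), 3 noncoding antisense or divergent transcripts, 2 readthrough genes and 2 retrocopies. NDUFA4 carries a complex I name but its protein is now placed in complex IV.

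Bulk RNA-seq was performed on Ishikawa and T-47D, established human lines from an endometrial adenocarcinoma and a breast carcinoma, to follow gene expression over a time course of 17beta-estradiol (E2), the ligand of the estrogen receptor. Before E2, both lines were held in phenol red-free RPMI with charcoal-dextran-stripped serum, so that all groups, the 0 h group included, had been deprived of hormone. Each line was given 10 nM E2 for 0 h (vehicle), 2 h, 4 h or 8 h, with 2 libraries per time point, 8 per line and 16 in all. Nothing in the labels says that the 2 libraries came from separate cultures, so the p-values measure the spread between these libraries, which may be technical. Each line is a single established cell line, and differences between the lines cannot be told apart from differences of tissue.

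Complex I takes electrons from NADH and complex II, succinate dehydrogenase, from succinate, and both pass them through ubiquinone to complex III. Complex III passes them through cytochrome c to complex IV, cytochrome c oxidase, which reduces oxygen. The proton gradient that complexes I, III and IV build drives ATP synthesis by complex V. Most of the subunits are encoded in the nucleus and form with a few mitochondrially encoded ones complexes of fixed stoichiometry, and NRF1, GABPA and the coactivators of the PGC-1 family are known regulators of these genes.

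The libraries held 41177912 to 58918642 counts in Ishikawa cells and 41223813 to 64148903 in T-47D cells, of which the 96 genes took 0.878 to 0.955% and 0.974 to 1.03%. The epithelial marker KRT8 ranged from 1197 to 1448 CPM, counts scaled to library size, in Ishikawa cells and from 3779 to 5829 CPM in T-47D cells. GATA3, a breast luminal marker, was at most 0.0889 CPM in Ishikawa cells against 1020 to 1228 CPM in T-47D cells, and PAX8, a Müllerian marker, was at most 0.0495 CPM in T-47D cells against 189.5 to 319 CPM in Ishikawa cells. The E2 target GREB1 ranged from 8.47 to 31.1 CPM in Ishikawa cells and from 115 to 534 CPM in T-47D cells, and the leukocyte marker PTPRC stayed at or under 0.145 CPM in every library. ESR1, the estrogen receptor gene, ranged from 169 to 242 CPM in Ishikawa and from 166 to 208 CPM in T-47D libraries. Of the stromal markers, VIM stayed at or under 2.03 CPM and COL1A1 reached 269 CPM in Ishikawa and 92.2 CPM in T-47D libraries. In Ishikawa cells the 4 h and 8 h libraries were divided across their labels: the first 4 h library and the second 8 h library each had the higher share of these genes within its time point (0.955% and 0.929%), and the second 4 h and first 8 h libraries the lower (0.924% and 0.878%). Their median log2 levels against the 0 h mean were 0.10, 0.06, 0.03 and -0.04. The labels were kept, and the Ishikawa counts at 4 h and 8 h are also given without either pair of these libraries. Of the counts between 1 and 10, 71.2 to 74.6% were even, so single counts may not be independent molecules.

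Of the 96 genes, 87 passed the low-count filter in Ishikawa cells, 89 in T-47D cells and 90 in the fit of all 16 libraries. The genes without a usable level were isoforms of restricted tissues, readthrough genes, a retrocopy and, in T-47D cells, SDHAF3. COX6A2, the isoform of heart and muscle, and the readthrough genes NDUFC2-KCTD14 and ATP5J2-PTCD1 had 0 counts in every library. COX8C, COX4I2 (the lung isoform) and the retrocopy ATP5L2 had 0 to 5 counts. COX7A1, the muscle isoform, had 0 to 14 counts per Ishikawa library and passed the filter in T-47D cells alone, with 7 to 22 counts, as did COX6B2, the testis isoform, with 0 to 18 against 9 to 19 counts. COX7B2 failed in Ishikawa cells and SDHAF3 in T-47D cells, and both are described with the differences between the lines.

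For every isoform but COX7A2L, the common form carried nearly all of the counts at 0 h in both lines. COX6A1, the isoform of most tissues, stood at 200.1 and 202 CPM in Ishikawa cells and at 243 and 260.3 CPM in T-47D cells. COX4I1, which most cells use in place of COX4I2, stood at 195 and 205 CPM in Ishikawa cells and at 345 and 332 CPM in T-47D cells. COX7A2 stood at 123 and 114 CPM in Ishikawa cells and at 86.4 and 77.4 CPM in T-47D cells. COX7A2L, grouped with the isoforms by name, came close to it, at 108 and 107 CPM in Ishikawa cells and 61.4 and 61.0 CPM in T-47D cells. COX6B1 and COX8A are likewise the partners of COX6B2 and COX8C, and were measured at 119.5 and 129.6 CPM and at 139 and 129.8 CPM in Ishikawa cells.

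Per length, the genes stood far above a typical gene. Among genes that passed the filter, the median level at 0 h was 99.0 CPM per kb of transcript for these genes against 8.40 for all genes in Ishikawa cells, and 114 against 8.47 in T-47D cells. In Ishikawa cells the median per complex, over subunits and isoforms, was 69.5 CPM per kb for complex I, 84.4 for complex II, 111 for complex III, 250.1 for complex IV and 138 for complex V. In T-47D cells the medians were 90.2, 137, 124, 151 and 198 CPM per kb in the same order. The complex IV medians rest on unlike sets, of 11 genes in Ishikawa and 14 in T-47D cells. COX7A1, COX6B2 and COX7B2 passed the filter in T-47D cells alone and stood there at 0.700, 0.215 and 2.84 CPM per kb. The medians of this complex are thus not like for like between the lines. The highest gene of all was ATP5B, the catalytic beta subunit of the ATP synthase, at 689 CPM per kb in Ishikawa cells, while in T-47D cells SDHC stood at 645 and ATP5B at 624. The SDHC value rests on a median transcript length of only 460 bases. The highest of complex I were NDUFS5 in Ishikawa cells (218 CPM per kb) and NDUFB11 in T-47D cells (243). Those of complex III were UQCRH (296), which bridges complex III to cytochrome c, and UQCRB (260.1), and COX6A1 led complex IV in both lines (375 and 468). The lowest of the filtered genes were NDUFV3 in Ishikawa complex I (6.20 CPM per kb) and UQCRFS1, the Rieske iron-sulfur protein, in complex III of both lines (25.1 and 24.0). Their median transcript lengths are 5.20 and 3.09 kb, so these low values rest in part on length. COX7A2L (47.2), a factor for supercomplexes, was the lowest of complex IV in Ishikawa cells, and COX6B2 (0.215) in T-47D cells. In complex II the lowest were SDHA in Ishikawa cells (53.6) and SDHB in T-47D cells (52.5).

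ATP5E, the epsilon subunit, was listed at 3 to 15 counts in Ishikawa libraries and 5 to 16 in T-47D libraries. The readthrough gene SLMO2-ATP5E, which covers it, was at 0 in every library, and the upstream partner SLMO2 had 1255 to 2952 counts over the 16 libraries. ATP5E and UQCRHL, a retrocopy of UQCRH, share sequence with other genes, so their values are uncertain. ATP5EP2, a pseudogene by its symbol, had 3 to 13 counts in Ishikawa and 1 to 4 in T-47D libraries. How reads within overlapping genes were counted is not given, and its part in the low ATP5E counts was not tested. The same limit holds for the readthrough genes NDUFC2-KCTD14 and ATP5J2-PTCD1 and for NDUFC2 and ATP5J2, which they overlap on the same strand.

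**Figure D1:**
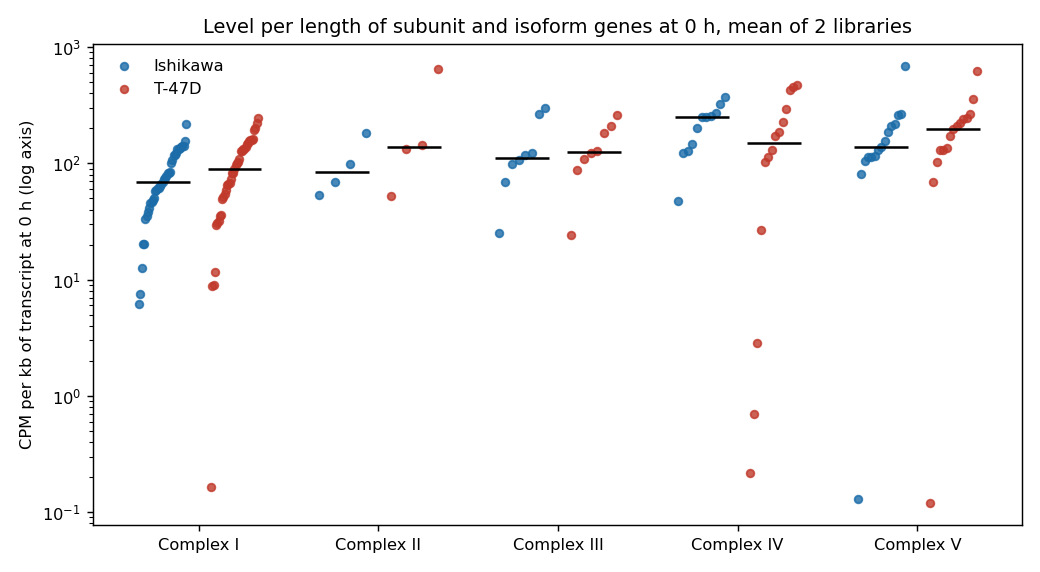
Level of each subunit or isoform gene that passed the filter at 0 h, as CPM per kb of transcript on a log axis, by complex. Points are means of 2 libraries (blue Ishikawa, red T-47D) and black lines are medians per complex, which lie between 69.5 and 250.1 CPM per kb. The low points of complex V are ATP5E, whose counts are uncertain.

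CpG and the motifs of NRF1 and GABPA were found more often upstream of these genes than of genes at large. The 250 bases upstream of the start were searched on both strands in RefSeq promoters (GRCh38.p14), of which 76 of the 96 genes had an entry. Where a gene had several entries, the entry at the start of its main annotated transcript was taken for these genes, if found. For all promoters the entry with the lowest coordinate was taken, and genes without expression here were included. The shares are therefore not strictly like for like. The NRF1 motif (GCGCA and GCGC with any 1 base between) was found in 21.1% of them against 5.34% of all 27305 promoters, and the ETS motif CCGGAAG of GABPA in 25% against 8.79%. The GC box GGGCGG of SP1 was found in 59.2% against 41.6%, and the median number of CpG was 19.5 against 10. The YY1 motif AANATGGCG was found in 5.26% against 1.35%, the cyclic AMP response element TGACGTCA in 5.26% against 1.74%, and the E-box CACGTG of MYC in 10.5% against 6.33%. The estrogen response element (GGTCA and TGACC with any 3 bases between) was found in 0% against 0.0439%, and the estrogen-related receptor element TNAAGGTCA in 1.32% against 0.89%. Letters of one motif may overlap those of another, and a match is a description of the letters, not a bound site. Promoters are shown for 4 genes whose responses or levels the results turn on and for COX7B and its isoform COX7B2, with motif matches in capitals. Those are the cyclic AMP response element in ATP5G1, the GC boxes in NDUFV2, the E-box and NRF1 motif in NDUFA11, and the NRF1 motif, GC box and ETS motif in SDHAF3, in this order. ATP5B is named without a sequence.
ATP5G1, chr17:48892537-48892786, plus strand: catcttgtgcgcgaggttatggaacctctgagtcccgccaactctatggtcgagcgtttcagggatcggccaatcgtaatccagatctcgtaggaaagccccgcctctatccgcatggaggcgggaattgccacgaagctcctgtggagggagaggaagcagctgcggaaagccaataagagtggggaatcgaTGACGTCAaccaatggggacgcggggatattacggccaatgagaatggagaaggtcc
NDUFV2, chr18:9102449-9102698, plus strand: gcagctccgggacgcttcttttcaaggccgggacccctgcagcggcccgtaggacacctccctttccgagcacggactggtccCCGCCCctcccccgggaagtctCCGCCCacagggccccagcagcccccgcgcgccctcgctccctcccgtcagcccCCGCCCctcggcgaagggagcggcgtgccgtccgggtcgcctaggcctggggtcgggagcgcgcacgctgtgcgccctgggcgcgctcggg
NDUFA11, chr19:5903791-5904040, minus strand: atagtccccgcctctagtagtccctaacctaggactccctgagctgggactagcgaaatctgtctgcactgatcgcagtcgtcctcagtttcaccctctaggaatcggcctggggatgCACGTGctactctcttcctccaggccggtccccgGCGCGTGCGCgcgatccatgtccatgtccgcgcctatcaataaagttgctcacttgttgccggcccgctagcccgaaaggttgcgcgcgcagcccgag
SDHAF3, chr7:97117448-97117697, plus strand: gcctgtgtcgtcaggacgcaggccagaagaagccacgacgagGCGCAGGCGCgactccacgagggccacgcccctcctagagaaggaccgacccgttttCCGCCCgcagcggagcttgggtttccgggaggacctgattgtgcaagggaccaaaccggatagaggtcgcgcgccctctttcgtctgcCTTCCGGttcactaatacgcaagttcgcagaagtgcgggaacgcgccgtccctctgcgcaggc
COX7B, chrX:77899218-77899467, plus strand: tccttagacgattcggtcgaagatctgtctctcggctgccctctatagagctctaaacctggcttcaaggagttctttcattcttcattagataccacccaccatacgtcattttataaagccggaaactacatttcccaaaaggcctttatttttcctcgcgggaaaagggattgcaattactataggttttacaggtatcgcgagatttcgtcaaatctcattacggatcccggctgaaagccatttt
COX7B2, chr4:46909246-46909495, minus strand: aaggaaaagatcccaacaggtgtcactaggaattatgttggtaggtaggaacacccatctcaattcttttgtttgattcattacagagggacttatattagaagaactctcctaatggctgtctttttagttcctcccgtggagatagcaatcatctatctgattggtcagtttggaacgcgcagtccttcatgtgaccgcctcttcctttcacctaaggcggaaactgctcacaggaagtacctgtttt

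E2 moved few of these genes, and by little. In bulk RNA, a change in the number of cells that express a gene and a change in RNA per cell cannot be told apart. At any E2 time, 8 of 87 genes (9.2%) were called in Ishikawa cells against 24.3% of all genes tested, and 13 of 89 (14.6%) in T-47D cells against 34.2%. Calls are at an adjusted p under 0.05 in the edgeR quasi-likelihood test over all genes. In the terms of the study, in which a gene changed at 2 h is Early and one changed first at 4 h or 8 h is Late, 1 gene was Early and 7 were Late in Ishikawa cells, and 2 were Early and 11 Late in T-47D cells. The 95% interval of the change lay within 0.5 on the log2 scale for 82, 79 and 78 of the 87 genes at 2 h, 4 h and 8 h in Ishikawa cells (94.3%, 90.8% and 89.7%), and for 81 of 89 (91%) at each time in T-47D cells. Over all genes that share was 57.7 to 65.1% in Ishikawa cells and 60.6 to 67.6% in T-47D cells. The genes were more abundant than most, with a median of 77.1 CPM against 21.8 for all genes in Ishikawa cells and 77.0 against 21.2 in T-47D cells, and higher counts give narrower intervals.

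In Ishikawa cells 1 of 87 genes rose after 2 h, when 2.61% of all genes rose and 4.35% changed either way. After 4 h 6 rose and 1 fell, against 7.66% and 6.6% of all genes and 14.3% either way, and after 8 h 5 rose, against 12% and 22.1% either way. With 4 h and 8 h as 1 contrast, 8 rose and 0 fell (13.2% of all genes rose, and 25.1% changed either way). Between 8 h and 2 h the edgeR quasi-likelihood test called 0 of 87 (2.24%), with 3 at an unadjusted p under 0.05. At 4 h, 74 of the 87 values lay above 0, with a median of 0.077 on the log2 scale against 0.005 over all genes. At 8 h, 41 lay above 0 and the median was -0.005. The values shifted with the libraries named above: without the first 4 h and second 8 h libraries 1 gene was called at 4 h, 2 at 8 h and 3 with both times as 1 contrast, and without the other pair 7, 10 and 11 were called. Leaving out the second 0 h library left 1 call at 4 h and 1 at 8 h, and leaving out the first 4 h library left 1 at 4 h. Without the second 8 h library 2 were called at 8 h.

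In T-47D cells 2 of 89 genes fell after 2 h, when 4.4% of all genes fell and 9.3% changed either way. After 4 h 8 fell, against 10.4% of all genes and 21.5% either way, and after 8 h 3 rose and 1 fell, against 15.4% and 14.3% and 29.7% either way. With 4 h and 8 h as 1 contrast, 3 rose and 4 fell (15.5% and 14.9% of all genes, 30.4% either way), and 3 were higher after 8 h than after 2 h (9.53%, and 16.8% either way). At 4 h, 22 of the 89 values lay above 0, with a median of -0.047 against -0.005 over all genes, and at 8 h 47 lay above 0, with a median of 0.010. The 8 falls at 4 h were small, between -0.11 and -0.22. Their number fell to between 0 and 3 when any single 0 h, 2 h or 4 h library was left out, whereas at 8 h 3 to 7 genes were called whichever library was left out.

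**Figure D2:**
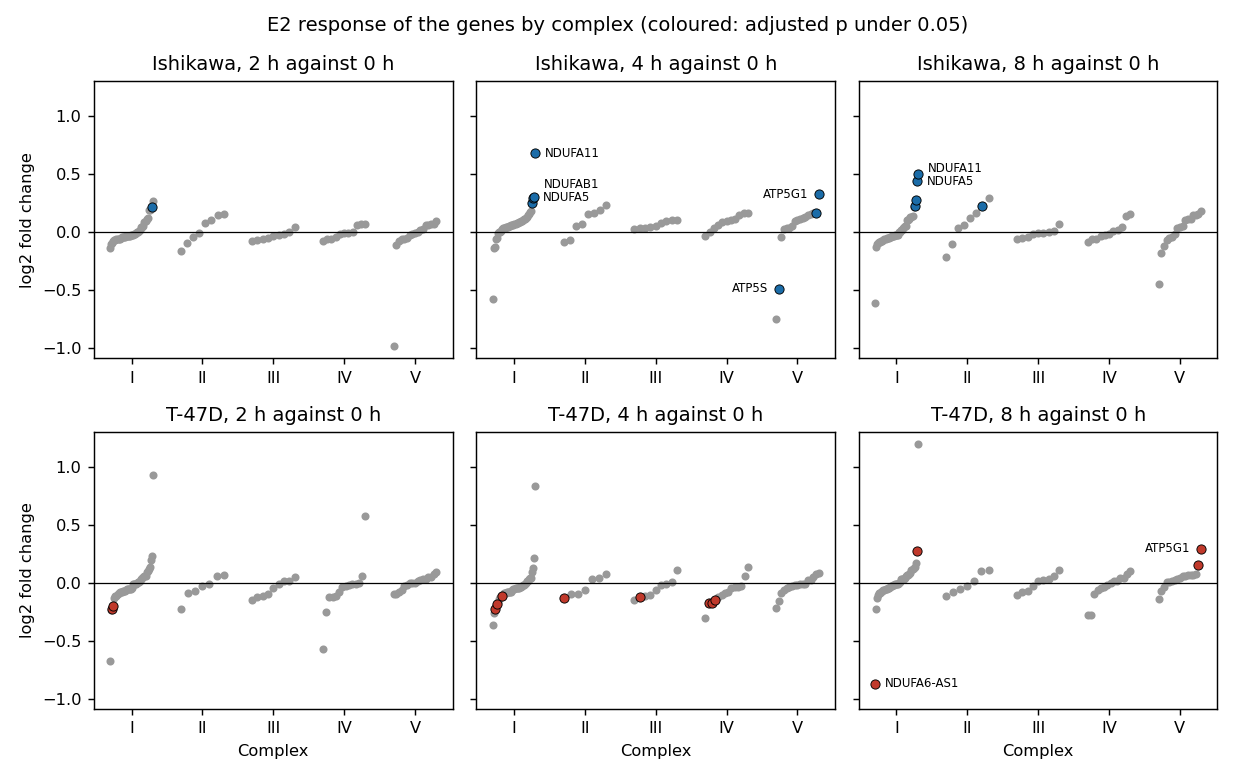
Log2 fold change against 0 h of each gene that passed the filter, by complex (1 point per gene, ordered by value), in Ishikawa (top) and T-47D cells (bottom) at 2 h, 4 h and 8 h of E2. Coloured points passed an adjusted p of 0.05 (1, 7 and 5 in Ishikawa, 2, 8 and 4 in T-47D); grey points did not.

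In T-47D cells at 8 h, 2 of the 17 complex V genes tested rose, ATP5G1 and ATP5B, and the median over the 17 was 0.041 on the log2 scale. ATP5G1 (chr17:46970127-46973233, hg19, plus strand) encodes a copy of subunit c, whose ring turns as protons pass. In T-47D cells its level was 74.2 and 71.8 CPM with vehicle, 73.1 and 73.9 after 2 h, 77.1 and 77.3 after 4 h and 91.4 and 87.6 after 8 h. Both 8 h libraries stood above the other 6. The increase was 0.29 ± 0.05 (SE) on the log2 scale, with an adjusted p of 0.000129 in the edgeR quasi-likelihood test, and was called in all 17 of the alternatives that could give it. In Ishikawa cells ATP5G1 was at 43.4 and 44.3 CPM with vehicle, 46.0 and 45.0 after 2 h, 58.5 and 51.1 after 4 h and 46.1 and 53.6 after 8 h. Both 4 h libraries lay above both 0 h libraries, and the increase at 4 h was 0.33 ± 0.08 (adjusted p = 0.0159), a call lost without either 0 h library or the first 4 h library. At 8 h it was not called. The other genes for the same subunit c, ATP5G2 and ATP5G3, were not called at any time in either line.

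ATP5B (chr12:57031959-57039768, hg19, minus strand) moved by a smaller amount. In T-47D cells it measured 1105 and 1090 CPM with vehicle, 1121 and 1078 after 2 h, 1130 and 1106 after 4 h and 1254 and 1190 after 8 h, so that the 8 h libraries again lay above all others. The increase was 0.16 ± 0.03 (adjusted p = 0.00222), and it was called in all 17 alternatives. Ishikawa libraries measured 1212 and 1212 CPM with vehicle and 1428 and 1283 after 4 h. There the change of 0.17 ± 0.05 was called (adjusted p = 0.0497) but only in 4 of 19 alternatives. The 8 h libraries, at 1303 and 1328 CPM, also lay above the 0 h ones without a call. ATP5S, an ATP synthase-associated factor, fell at 4 h in Ishikawa cells from 5.62 and 5.10 to 3.50 and 4.09 CPM (-0.49 ± 0.16, adjusted p = 0.0492), a call kept in 10 of 19 alternatives.

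**Figure D3:**
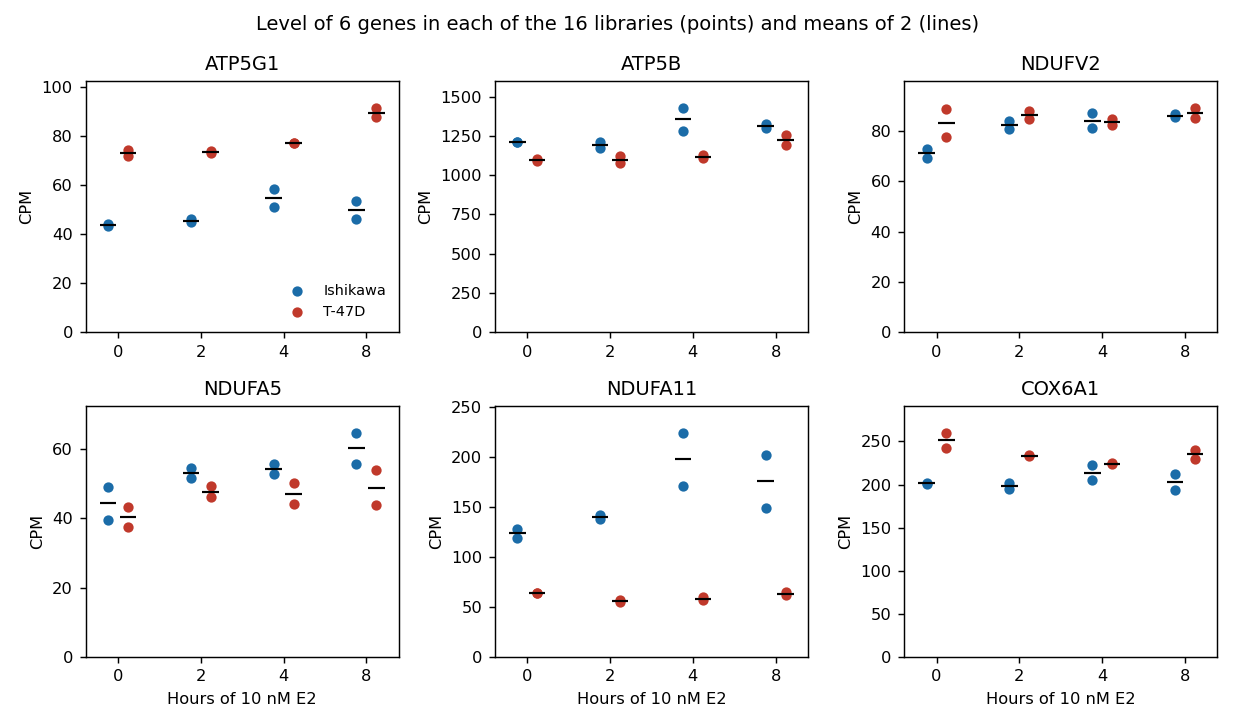
Level (CPM, axes from 0) of ATP5G1, ATP5B, NDUFV2, NDUFA5, NDUFA11 and COX6A1 in each library after 0, 2, 4 and 8 h of 10 nM E2; points are libraries, black lines means of 2 (blue Ishikawa, red T-47D). ATP5G1 in T-47D cells reaches 91.4 and 87.6 CPM after 8 h, and NDUFA11 in Ishikawa cells reaches 225 and 171 CPM after 4 h.

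Within complex I, NDUFA11 (chr19:5891287-5904017, hg19, minus strand), an accessory subunit of the membrane arm, had the largest rise among the called genes. NDUFA4L2 had a larger value (1.19 at 8 h in T-47D cells) without a call, on 5 to 24 counts per library. In Ishikawa cells NDUFA11 measured 119 and 128 CPM with vehicle, 142 and 138 after 2 h, 225 and 171 after 4 h and 149 and 203 after 8 h. All E2 libraries lay above both 0 h libraries. Those of 4 h and of 8 h, however, differed widely among themselves, with the first 4 h and the second 8 h library the higher. The increase was 0.68 ± 0.12 at 4 h (adjusted p = 0.00164), called in all 19 alternatives, and 0.50 ± 0.12 at 8 h (adjusted p = 0.00912), called in 15 and lost, among others, with DESeq2 and without the second 8 h library. In T-47D cells NDUFA11 was at 63.8 and 64.1 CPM with vehicle, 57.3 and 54.7 after 2 h, 56.7 and 59.8 after 4 h and 65.2 and 61.4 after 8 h. It fell at 2 h by 0.20 on the log2 scale (SE 0.05, adjusted p = 0.0252) and was higher again at 8 h than at 2 h (0.18 ± 0.05, adjusted p = 0.0245), 2 calls that depend on single libraries of 2 h among others.

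NDUFV2 (chr18:9102628-9134343, hg19, plus strand) carries an iron-sulfur cluster of the NADH-oxidising module. In Ishikawa cells it stood at 73.0 and 69.2 CPM with vehicle, 80.7 and 84.1 after 2 h, 87.1 and 81.2 after 4 h and 87.0 and 85.5 after 8 h. All E2 libraries lay above both 0 h libraries. The increase was 0.22 ± 0.06 at 2 h (adjusted p = 0.0484), 0.25 ± 0.06 at 4 h (0.0114) and 0.27 ± 0.06 at 8 h (0.00439). The 8 h call held in all 19 alternatives, the 4 h call in 16 and the 2 h call in only 2 of 20. NDUFV2 overlaps an antisense transcript, NDUFV2-AS1, and since the strand setting of the counting is not given, reads of the pair cannot be told apart. In T-47D cells NDUFV2 stood at 88.8 and 77.7 CPM with vehicle and 85.1 and 89.3 after 8 h, with no call at any time.

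NDUFA5, an accessory subunit of the peripheral arm, was called at 8 h in both lines. In Ishikawa cells it was at 49.2 and 39.4 CPM with vehicle and 55.7 and 64.7 after 8 h (0.44 ± 0.09, adjusted p = 0.0042). In T-47D cells it was at 43.3 and 37.5 CPM with vehicle and 43.7 and 54.0 after 8 h (0.27 ± 0.09, adjusted p = 0.0293). The first 8 h library of T-47D cells lay barely above the higher 0 h library, and the call was kept in 11 of 17 alternatives, against 14 of 19 in Ishikawa cells. Both calls were lost with an offset for GC content and length, and without the second 0 h or second 8 h library of the line. The T-47D call was also lost with DESeq2 and with the replicate number as a block. NDUFAB1, the mitochondrial acyl carrier protein, rose in Ishikawa cells from 63.5 and 58.0 CPM with vehicle to 77.4 and 72.0 after 4 h (0.30 ± 0.07, adjusted p = 0.00971), a call kept in 16 of 19 alternatives and lost without the second 0 h or the first 4 h library. SDHD, a membrane anchor of complex II, rose at 8 h (0.23 ± 0.07, adjusted p = 0.036) and COX5A only with 4 h and 8 h together (0.16 ± 0.05, adjusted p = 0.0331). These 2 calls were kept in 12 and 10 of 19 alternatives. Both were lost under upper quartile and total count scaling, and without the second 0 h, either 2 h or the second 8 h library. COX5A also lost its call without the first 0 h or the first 4 h library.

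The T-47D falls at 4 h were spread over 4 of the 5 complexes by name, with none under complex V. COX6A1 measured 243 and 260.3 CPM with vehicle and 224 and 225 after 4 h (-0.17 ± 0.04, adjusted p = 0.00918). COX8A measured 227 and 223 CPM with vehicle and 201 and 206 after 4 h (-0.15 ± 0.04, adjusted p = 0.0203). The 4 h libraries of both genes lay below their 0 h libraries, and the calls were kept in 14 and 12 of 17 alternatives. NDUFS7, which carries an iron-sulfur cluster near the ubiquinone site, went from 38.3 and 35.8 CPM with vehicle to 31.7 and 32.2 after 4 h (-0.22 ± 0.07, adjusted p = 0.0224), and was also called at 2 h (-0.22 ± 0.07, adjusted p = 0.0444). The 4 h call was kept in 12 of 17 alternatives and lost without the first 0 h or either 4 h library and with an offset for GC content and length, under which the value was -0.107. The 2 h call was kept in only 7 of 18 and lost with median-of-ratios scaling, with the replicate number as a block, with that offset and without any single 0 h, 2 h or 4 h library. The other 5 were NDUFB7 (-0.18), COX5B (-0.17), SDHA (-0.13), UQCRC1 (-0.13) and NDUFA4 (-0.11), of complexes I, IV, II, III and IV. Their calls were kept in 9, 11, 11, 4 and 7 of 17 alternatives, in that order, and UQCRC1 was the only fall under complex III. With the offset for GC content and length, 5 genes were called at 4 h in place of 8. The divergent noncoding transcript NDUFA6-AS1 was at 2.26 and 1.88 CPM with vehicle and 1.01 and 1.27 after 8 h (-0.87 ± 0.23, adjusted p = 0.00886). It was called in 15 of 17 alternatives.

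The responses of the lines were compared as the interaction of line and time over all 16 libraries, in 90 genes. At 2 h the edgeR quasi-likelihood test called 0 of 90 (background 2.67%), with 2 at an unadjusted p under 0.05. At 4 h it called 2, both lower in T-47D cells (2.83% of all genes were lower and 6.03% differed either way), and at 8 h it called 1, also lower (4.7%, and 10% either way). NDUFA11 differed by -0.81 ± 0.16 at 4 h (T-47D minus Ishikawa, adjusted p = 0.0024), called in all 27 alternatives, and by -0.52 ± 0.16 at 8 h (adjusted p = 0.041), called in 14. COX8A differed by -0.29 ± 0.08 at 4 h (adjusted p = 0.0269), called in 20. Its Ishikawa levels were 139 and 129.8 CPM with vehicle and 152 and 145 after 4 h, both 4 h values above both 0 h values. The median difference over the 90 genes was -0.115 at 4 h, against 0.020 over all genes, with 13 values above 0, and -0.009 at 2 h and 8 h.

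Other genes of the pathway, in lists chosen with earlier results known, are given beside the subunits. At 8 h, 12% of all genes rose and 22.1% changed either way in Ishikawa cells, and 15.4% rose, 14.3% fell and 29.7% changed either way in T-47D cells, and the counts of these lists are read against those shares. Cytochrome c (CYCS), the electron carrier between complexes III and IV, was at 158 and 145 CPM with vehicle and 219.8 and 255 after 8 h in T-47D cells (0.65 ± 0.06, adjusted p = 3.44e-07). Ishikawa libraries held it at 235 and 204 CPM with vehicle and 299 and 336 after 8 h (0.53 ± 0.08, adjusted p = 0.000188). Its 8 h libraries lay above the 0 h libraries in both lines. Of 5 genes of the chain outside the prefixes, 2 rose at 8 h in each line: CYCS with USMG5 (0.31) in Ishikawa cells, and CYCS with CYC1 (0.19), cytochrome c1 of complex III, in T-47D cells. Of 16 complex I assembly factors, 3 rose and 1 fell at 8 h in Ishikawa cells and 4 rose in T-47D cells. Among them were NDUFAF4 (0.54 and 0.52), TMEM126B (0.29 and 0.30) and NDUFAF2 (0.38 and 0.32), in that order of lines. Of 35 other assembly factors tested, 9 rose at 8 h in Ishikawa cells, and 10 rose and 2 fell in T-47D cells. COA7, for complex IV, measured 67.6 and 64.6 CPM with vehicle and 78.3 and 78.1 after 8 h in Ishikawa cells (0.24), and 21.9 and 21.5 against 34.5 and 30.0 in T-47D cells (0.57). LYRM7, for the Rieske protein, rose in both lines (0.51 and 0.36), and BCS1L, its partner in that step, in T-47D cells (0.39).

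Among regulators of mitochondrial biogenesis, 8 of 19 tested rose and 1 fell after 8 h in Ishikawa cells, while 7 of 20 rose and 2 fell in T-47D cells. Over all genes, 22.1% and 29.7% changed either way at that time. MYC measured 5.70 and 4.83 CPM with vehicle, 27.3 and 33.0 after 2 h and 32.6 and 35.97 after 8 h in T-47D cells, a rise of 2.50 at 2 h. In Ishikawa cells it stood at 114 and 116 CPM with vehicle and 152 and 166 after 8 h, a rise of 0.46. PPARGC1B, a coactivator of the PGC-1 family, rose at 8 h in both lines (0.94 and 0.87), from 15.2 and 14.6 to 26.3 and 31.3 CPM in Ishikawa cells and from 5.73 and 6.26 to 10.6 and 11.3 CPM in T-47D cells. PPARGC1A, of the same family, fell at 2 h in Ishikawa cells, from 7.02 and 5.56 to 3.10 and 3.39 CPM (-0.94 ± 0.17, adjusted p = 0.00366), and the T-47D values were 1.85 and 1.63 CPM with vehicle with no call.

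The cell lines differed more than E2 moved either. At 0 h, 43 of the 90 genes were higher and 25 lower in T-47D than in Ishikawa cells, or 75.6% in all, against 39.5% higher, 42.4% lower and 81.9% in all over the genes tested. The median difference was 0.169 on the log2 scale (T-47D minus Ishikawa), against -0.053 over all genes. That median became 0.111 under upper quartile scaling and 0.080 under total count scaling, which shift the median of all genes to -0.111 and -0.141. By summed CPM over all 16 libraries, complex II differed most in proportion, with 406.5 to 454 in Ishikawa and 806 to 862 in T-47D cells. Complex I summed to 2609 to 2920 CPM against 3217 to 3401, and complex III to 906 to 989 against 1013 to 1072. Over all time points the lines overlapped in complex IV (1415 to 1593 against 1492 to 1600 CPM) and complex V (3122 to 3595 against 3413 to 3702 CPM). At 0 h alone they did not overlap. Complex IV then summed to 1467 and 1465 CPM in Ishikawa against 1597 and 1587 in T-47D cells, and complex V to 3210 and 3176 against 3485 and 3424.

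SDHC and SDHA carried the gap of complex II. SDHC, a membrane anchor, was at 84.2 and 83.8 CPM with vehicle in Ishikawa against 300.1 and 293 in T-47D cells (1.82 ± 0.04, adjusted p = 1.18e-18). SDHA, the flavoprotein that oxidises succinate, was at 116 and 114 CPM in Ishikawa against 286 and 282 in T-47D cells (1.30 ± 0.06, adjusted p = 1.65e-14). SDHD was also higher in T-47D cells (0.52 ± 0.07), while SDHB, the iron-sulfur subunit, was lower (-0.41 ± 0.07), at 67.6 and 73.4 CPM against 52.8 and 53.7. The subunits of this 4-part complex thus did not differ by one factor. SDHAF2, which inserts the flavin of SDHA, was also higher (1.37 ± 0.08).

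SDHAF3 (chr7:96747010-96811075, hg19, plus strand), an assembly factor for SDHB, was present in 1 line alone. It had 466 to 827 counts in each Ishikawa library, while 7 T-47D libraries had 0 counts and the first 8 h library had 2. At 0 h this was at least 154-fold lower in T-47D cells, taking 3 counts per library as the floor, a limit that covers counting error only. Among genes within 2 Mb, DLX6 had 0 to 2 counts in T-47D libraries against 474 to 706 in Ishikawa libraries, and ASNS had 904 to 1510 against 20268 to 30129. PON3 went the other way, with 1318 to 2161 counts in T-47D libraries against 0 to 2 in Ishikawa libraries. TECPR1 (636 to 871 against 347 to 552) and DYNC1I1 (97 to 180 against 37 to 91) were also higher in T-47D libraries. SLC25A13 (1961 to 3014 against 2628 to 3817) and SHFM1 (1963 to 3241 against 3536 to 5175) were present in both lines. COX7B2, the testis isoform of COX7B, showed the pattern opposite to SDHAF3, with 0 counts in all Ishikawa libraries and 54 to 113 in T-47D libraries. At 0 h it was at least 26.4-fold higher in T-47D cells, although at 1.43 and 1.91 CPM it stayed far below COX7B (74.3 and 72.4 CPM). The fitted log2 values of both genes depend on the prior count and are not given. NDUFA4L2, the isoform of NDUFA4 known to be induced in hypoxia, had 233 to 385 counts per Ishikawa library and 5 to 24 per T-47D library, a log2 difference of -5.48 ± 0.40 at 0 h. NDUFA4 itself went the other way (0.43 ± 0.05), from 245 and 234 to 325 and 317 CPM. NDUFA4L2 overlaps SHMT2 on the opposite strand, so its few counts are uncertain.

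**Figure D4:**
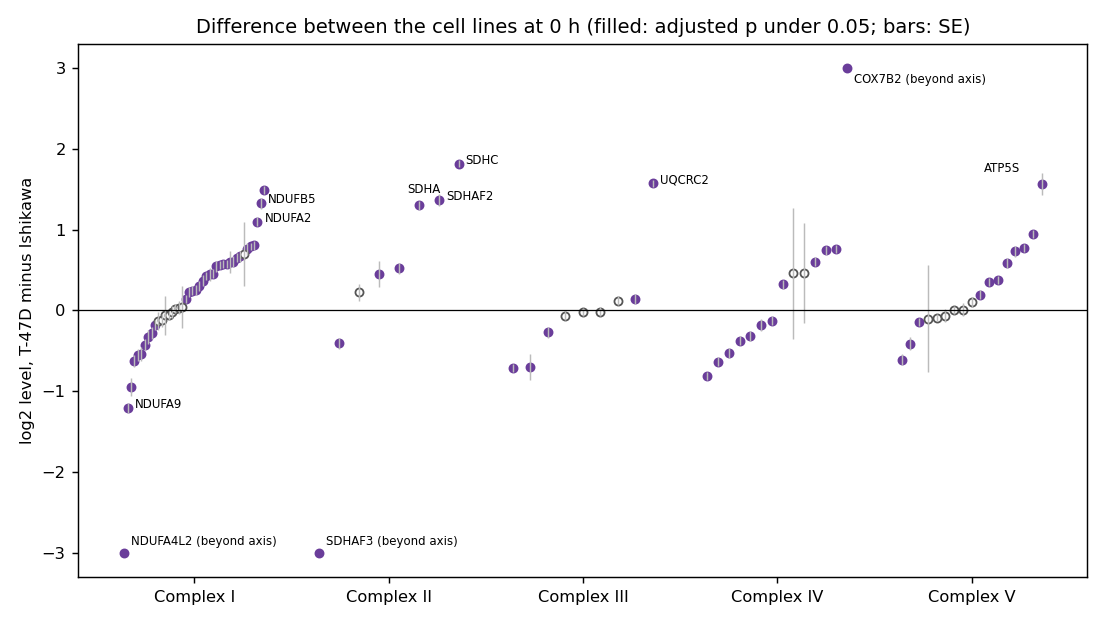
Log2 difference at 0 h (T-47D minus Ishikawa, 2 libraries each) of the 90 genes by complex, with SE bars; filled points passed an adjusted p of 0.05 (43 higher, 25 lower). COX7B2, SDHAF3 and NDUFA4L2 lie beyond the axis and are drawn at its edge, and SDHC has the largest value within it (1.82).

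Of the other large differences, UQCRC2, a core protein of complex III, was at 97.6 and 99.4 CPM in Ishikawa and 294 and 293 in T-47D cells (1.57 ± 0.05, adjusted p = 1.55e-17). Its partner UQCRC1 was at 192 and 201 against 197 and 192 CPM, with a 95% interval of the log2 difference from -0.13 to 0.10. ATP5S (1.56 ± 0.13) and NDUFB5 (1.33 ± 0.07) were also higher in T-47D cells, as was NDUFA2 (1.10 ± 0.06). NDUFA9, an accessory subunit of complex I, was the lowest of those with ample counts, at 94.9 and 87.3 against 40.5 and 38.5 CPM (-1.21 ± 0.06). NDUFA11 (-0.95 ± 0.11), COX7A2L (-0.81 ± 0.05) and UQCRH (-0.71 ± 0.05) were also lower in T-47D cells. All of these but UQCRC1 passed an adjusted p of 0.05 in the edgeR quasi-likelihood test. ATP5G1 (0.73), ATP5G2 (0.78) and ATP5G3 (0.59), the genes for subunit c, were all higher in T-47D cells.

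The difference at a gene was set beside that of the other genes within 5 Mb, to see whether the values move along the chromosome. Over 90 genes the difference of the gene and the median difference of its neighbours had a Spearman correlation of 0.57 and a Pearson correlation of 0.13, across genes that share libraries and, in part, neighbours. Both include SDHAF3, COX7B2 and NDUFA4L2, whose differences lie far beyond the rest, and the Pearson value was not computed without them. The sign was the same for 66 of 90 genes, and for 10 of the 12 beyond 1 in size. The same values were not computed over all genes, so this likeness to neighbours cannot be called particular to these genes. Around SDHC (chr1:161284171-161332996, hg19, plus strand) the neighbours had a median of 0.56. Around NDUFA9 the 108 neighbours had a median of -1.52. UQCRC2 and ATP5S are unlike these, with neighbour medians of 0.03 and 0.20. Copy number was not measured and its part was not tested.

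**Figure D5:**
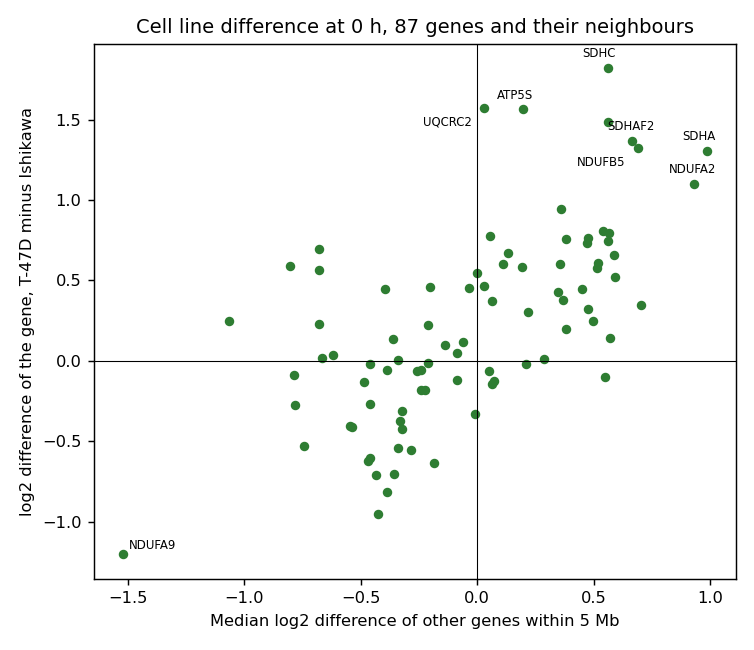
Log2 difference at 0 h (T-47D minus Ishikawa) of each of 87 genes (vertical) against the median of other genes within 5 Mb (horizontal), with most genes beyond 1 named; COX7B2, SDHAF3 and NDUFA4L2 are left off. Most points lie in the lower left and upper right, with NDUFA9 at the lower left and UQCRC2 close to 0 on the horizontal axis.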

How the data were processed

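Poly(A) RNA-seq libraries were made with a directional kit from 2 cell lines at 4 time points. HISAT2 (alignment to hg19), SAMtools and featureCounts (UCSC Known Genes) were the authors' tools. The deposited values are raw counts per gene, 1 table per cell line. Versions, strand setting and treatment of read pairs and multiple alignments are not given in the sources used here. Members and lists were chosen with earlier results of these data known.

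Tests used edgeR 4.0.16 in R 4.3.3 (filterByExpr, TMM, glmQLFit and glmQLFTest, Benjamini-Hochberg over all genes), per line with time as a factor and no replicate block. The fit of both lines gave the interaction and the 0 h difference. Errors of log2 changes are SE, taken as the change over the square root of F. CPM used TMM-scaled library sizes over 16 libraries, and levels per kb the median length of protein-coding transcripts in GENCODE on GRCh37, which matched 22494 symbols directly and 1346 by an older symbol of 26364. Named genes are up to 6 called genes with the largest changes per line and direction, up to 6 per direction with the largest 0 h difference, those with a called interaction, the highest and lowest per complex, filtered genes, isoforms with their partners and SDHA to SDHD. From each list the 3 called genes with the largest changes are named. COX5A, UQCRC1, NDUFA2, NDUFB5 and the neighbours of SDHAF3 and ATP5E lie outside this rule and were named after their values were seen. The script was tested on simulated data. Alternatives were DESeq2 1.42.0, other scalings, other filters, a replicate block, a GC and length offset and leaving out libraries. No replicate pair held identical values. Not every gene that the rule selects is reported here.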

Additional observations from a re-analysis of the deposited data

Results flagged for a closer look

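The E2 response of NDUFA11 and COX8A differed between the cell lines in a test of the difference itself, the interaction of line and time in edgeR. NDUFA11 differed at 4 h by -0.81 on the log2 scale (T-47D minus Ishikawa), rising in Ishikawa cells by 0.68 with no call at 4 h in T-47D cells. At 8 h the difference was -0.52, with a rise of 0.50 in Ishikawa cells. The Ishikawa libraries of 4 h and 8 h differed among themselves in this gene (225 and 171 CPM, 149 and 203 CPM), and the 4 h difference was called in all 27 alternatives (-1.01 to -0.63), those without either pair of these libraries or any single one included. The 8 h difference was called in 14 of 27 and lost, among others, without the second Ishikawa 8 h library. COX8A differed at 4 h by -0.29, with a fall of -0.15 in T-47D cells and both Ishikawa 4 h libraries above both 0 h libraries. The Ishikawa rise itself was not called. The COX8A difference was called in 20 of 27 alternatives and lost, among others, without the first Ishikawa 4 h library or any single T-47D 0 h or 4 h library.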

How the results depend on the processing

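Counts below are genes called and medians are log2 values over the genes. In Ishikawa cells the 2 h count of 1 became 0 with median-of-ratios (RLE), upper quartile or total count scaling, with at least 10 counts in every library, with the GC and length offset, and in the fits added after seeing the data (either pair of 4 h and 8 h libraries left out, or 0 h and 2 h libraries only). Upper quartile scaling gave 3 genes at 8 h (median -0.052) and 5 for 4 h and 8 h together, and total count scaling gave 3 and 5. With the offset, 9 were called at 8 h (0.087), 15 together (0.098), and the median of 8 h against 2 h was 0.076. Without the first 4 h and second 8 h libraries the count was 1 at 4 h, 2 at 8 h (-0.058) and 3 together (-0.021), and without the other pair it was 10 at 8 h (0.066), with a median of 0.082 together, and 1 for 8 h against 2 h (0.082). No filter gave 1 for 8 h against 2 h.

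In T-47D cells the 2 h count of 2 became 1 with RLE scaling and with at least 10 counts, and 5 with the offset (-0.047). The offset gave 5 at 4 h, 10 at 8 h (-0.011), 11 together and 6 for 8 h against 2 h, and upper quartile scaling gave 7 at 8 h (-0.016) and 12 together (-0.045). Between the lines, the 2 h count of 0 became 1 with no filter and in the added fits. At 4 h it was 6 with DESeq2, 4 with RLE scaling or no filter, 13 with the offset (-0.178), and 1 or 8 without the first or the other Ishikawa pair. At 8 h it was 0 with upper quartile scaling, 4 with the offset (-0.096) and 2 without the first pair, with a median of -0.062 without the other. At 0 h the median was 0.111 under upper quartile and 0.080 under total count scaling. The cause of these shifts was not tested.

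Same-numbered libraries deviated from their group means with correlations of -0.114 to 0.054 in Ishikawa and -0.055 to 0.060 in T-47D cells. Libraries of the same number thus shared little deviation, which does not exclude that they were paired. With the replicate block, 0 genes were called at 2 h and 4 at 4 h in Ishikawa cells, 1 at 2 h in T-47D cells, and 0 between lines at 8 h. With block and offset, Ishikawa cells gave 0 at 2 h and medians of 0.088 at 8 h, 0.098 together and 0.076 for 8 h against 2 h. T-47D cells gave 5 at 2 h (-0.046), 10 at 8 h (-0.011), 12 together and 8 for 8 h against 2 h, and the lines differed in 9 at 4 h (-0.177) and 2 at 8 h (-0.096).

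Leaving out 1 library at a time gave 0 to 2 genes at 2 h (medians -0.025 to -0.001), 1 to 8 at 4 h (0.051 to 0.101), 1 to 10 at 8 h (-0.061 to 0.066), 2 to 11 together (-0.010 to 0.070) and 0 to 1 for 8 h against 2 h (-0.023 to 0.082) in Ishikawa cells. The second 0 h library gave the lowest count at 2 h, 4 h, 8 h and together, and the first 0 h library the highest; each 2 h library left 4, 3 and 5 at 4 h, 8 h and together, and the first 4 h and second 8 h libraries each left 4 together. The 2 h call was lost without any library but the first 0 h one. In T-47D cells it gave 0 to 3 at 2 h (-0.031 to -0.007), 0 to 11 at 4 h (-0.061 to -0.024), 3 to 7 at 8 h (-0.001 to 0.030), 2 to 12 together (-0.034 to -0.005) and 1 to 3 for 8 h against 2 h (0.014 to 0.045). The 2 h count was 0 without the second 0 h, either 2 h or the second 4 h library, and together 3 without the second 0 h, 2 without the first 4 h and 12 without the first 8 h library. Dropping the first 0 h library gave 7 at 8 h, and there was 1 for 8 h against 2 h without the second 2 h or the first 8 h library. Between lines it gave 0 at 2 h (-0.051 to 0.008), 1 to 6 at 4 h (-0.164 to -0.096), 0 to 2 at 8 h (-0.093 to 0.018) and 63 to 69 at 0 h (0.126 to 0.228). The 4 h range ran from 1 without the second Ishikawa 0 h library to 6 without the second Ishikawa 4 h library, with 4 without the first Ishikawa 0 h and 1 without the first Ishikawa 4 h or either T-47D 4 h library. The 8 h count was 0 without the second 0 h, 2 h or 8 h library of Ishikawa cells or the first 0 h or any 2 h or 8 h library of T-47D cells, and 2 without either Ishikawa 4 h library. NDUFA11 also lost its 8 h call without the first Ishikawa or the second T-47D 0 h library.

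No called change of a gene reversed under any alternative, though many lost their call: outside single libraries 518 values kept it and 94 lost it, and with single libraries left out 431 kept it and 169 lost it. With 2 libraries per group, 1 library decides many of the small calls. The median SE of a change was 0.067 in Ishikawa and 0.053 in T-47D cells on the log2 scale.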

Other observations

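Of 18 genes of the tricarboxylic acid cycle, 6 rose and 1 fell at 8 h in T-47D cells and 2 rose and 1 fell in Ishikawa cells, against 29.7% and 22.1% of all genes changed either way in these lines. PDHB, a subunit of pyruvate dehydrogenase, measured 77.7 and 76.8 CPM with vehicle and 118 and 119.5 after 8 h in T-47D cells (0.62 ± 0.04, adjusted p = 1.08e-08). In Ishikawa cells it had no call. IDH3A, of the NAD-dependent isocitrate dehydrogenase, rose at 8 h in both lines (0.43 in Ishikawa and 0.26 in T-47D cells), and IDH2, of the NADP-dependent enzyme, fell in both (-0.35 and -0.26).

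Of 18 genes of glycolysis, 4 rose at 8 h in Ishikawa cells, and 3 rose and 2 fell in T-47D cells, against the same 22.1% and 29.7% of all genes. SLC2A1, a glucose transporter, measured 61.7 and 59.4 CPM with vehicle and 105 and 104 after 2 h in T-47D cells (0.79 ± 0.05, adjusted p = 3.99e-09). HK2, a hexokinase, rose in Ishikawa cells from 105 and 105 CPM with vehicle to 146 and 153 after 8 h (0.51 ± 0.06, adjusted p = 2.28e-05). LDHA, lactate dehydrogenase A, rose at 8 h in Ishikawa cells (0.32 ± 0.08) and had no call in T-47D cells.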
